A study of Mus musculus with 12 samples.

Results

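The genes described here are 10 known targets of the transcription factor ATF4 that serve amino acid and folate metabolism: Aldh18a1 and Pycr1 of proline synthesis, Phgdh, Psat1 and Psph of serine synthesis, Shmt2 and Mthfd2 of the mitochondrial folate cycle, Asns of asparagine synthesis, Chac1 of glutathione breakdown and Cth of cysteine synthesis. They were followed on arrays of mouse muscle through every probe set that the array annotation assigned to only 1 of these symbols. Of 45101 probe sets in all, 22 met that rule, and they read 9 of the 10 genes. Pycr1 had no such probe set. A filter on low signal, described with the processing, kept 20 of the 22, from 8 genes, among 27497 probe sets tested. The probe sets that did not pass were the only one of Cth, between log2 2.56 and 2.63 on all arrays, and 1 of 4 of Shmt2, between 2.62 and 2.80, so that these transcripts were not measured above the floor of the table by them. A further 2 probe sets that share Phgdh with the predicted genes Gm8096 or Gm6756 were left out.

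ATF4 is translated more when stress kinases phosphorylate the translation factor eIF2alpha, for instance when proteins fold poorly in the endoplasmic reticulum (ER) or when amino acids run short. It then raises transcription of enzymes that make non-essential amino acids and supply folate-bound carbon units in mitochondria, together with transporters and stress factors such as Ddit3. In muscle this response is known from mitochondrial and ER stress, where serine synthesis and mitochondrial folate enzymes are among its usual readouts.

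Soleus and tibialis anterior (TA) of 4-week-old mice were compared, and the 4 groups were H6pd knockout (KO) soleus, wild type (WT) soleus, KO TA and WT TA, with 3 arrays each. H6pd encodes hexose-6-phosphate dehydrogenase, which makes NADPH inside the ER. Per the design text the mice were weaned and histology showed no overt muscle disease, and the muscles were chosen for their different fibre types and metabolism. The labels give neither the strain, the sex, the deleted part of the gene nor the cells that lack it, and do not say whether muscles of equal number came from 1 mouse. The labels call the replicates biological, and where they shared a litter or preparation the p-values measure only the spread between these samples. Values are log2 signals after quantile normalization, and 1 unit is a doubling.

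H6pd itself lay at log2 4.19, 4.41 and 6.10 in KO soleus, against 5.57, 6.12 and 7.11 in WT soleus. In TA it lay at 6.89, 6.49 and 7.49 in KO, against 6.37, 6.26 and 7.92 in WT. The groups overlapped in both muscles and neither difference passed the test (adjusted p = 0.68 in soleus and 0.972 in TA, limma). Whether the probe set lies in the deleted part is not given, so this signal does not check the genotype labels. The arrays numbered 3 of all 4 groups stood apart from the other 8 on the principal component with 23.9% of the variance, between -59.2 and -42.1 against 11.7 to 34.3, so results that rest on them are also given without them.

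The promoters of the members were read from RefSeq (GRCm38.p6) in windows from 250 bases before to 50 bases after each gene's start, which exist for 9 of the 10 genes in 10 windows. The C/EBP-ATF response element, the composite site through which ATF4 acts with C/EBP partners, was searched as TGATGNAA on both strands. It was present in the windows of 3 members, Pycr1 (TGATGCAA, 103 bases before the start), Asns and Chac1, and in 3.97% of all 32851 windows. Searches for the ER stress response element (in 0.119% of windows), TGACGTGG (the unfolded protein response element, 0.676%) and TGACGTCA (the cyclic AMP response element, 1.79%) found no member. The windows do not cover introns or more distant sequence. Among the members whose windows lack TGATGNAA, Aldh18a1 passed the test of the knockout effect below in TA and in the average over muscles. Psat1 and Mthfd2 passed in the average only. Stretches of 100 bases are printed for the pair of tested members that hold the ATF element, in capitals, and for Psat1 and Aldh18a1. Each is given 5′ to 3′ on the strand of its gene, and those of Asns, Psat1 and Aldh18a1 end 1 base before the start.
Asns, chr6:7693210-7693309, minus strand: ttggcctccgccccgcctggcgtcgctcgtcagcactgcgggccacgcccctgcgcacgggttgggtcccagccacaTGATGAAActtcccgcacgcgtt
Chac1, chr2:119351002-119351101, plus strand, 240 to 141 bases before the start: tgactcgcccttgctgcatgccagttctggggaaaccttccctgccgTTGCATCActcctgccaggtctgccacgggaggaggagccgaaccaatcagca
Psat1, chr19:15925060-15925159, minus strand: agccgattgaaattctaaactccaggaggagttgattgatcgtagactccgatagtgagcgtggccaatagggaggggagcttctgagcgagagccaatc
Aldh18a1, chr19:40588464-40588563, minus strand: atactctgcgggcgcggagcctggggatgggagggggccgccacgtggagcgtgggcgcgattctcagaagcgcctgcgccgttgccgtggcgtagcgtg
In Chac1 the capitals show the element on the opposite strand.

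Across the 4 groups, KO TA had the highest mean signal in 6 of the 8 measured genes. In TA the KO arrays lay above all WT arrays in these 6, Psat1, Psph, Shmt2, Mthfd2, Aldh18a1 and Asns, by the brightest probe set of each, whereas 9.93% of all tested probe sets separated in this way. Over all 20 probe sets, 11 separated with KO higher and 0 with KO lower. The members were chosen with earlier results of these data known, so the contrast with 9.93% is a description and not a test. That share covers dim probe sets too. Only Aldh18a1 passed the test in TA after adjustment over all probe sets, where 1.68% of all probe sets passed in either direction and 0.796% passed as higher. Averaged over both muscles, Aldh18a1, Mthfd2 and Psat1 passed, where 2.88% of all probe sets passed in either direction and 1.47% as higher. The averages here and below count the muscles as independent samples. If muscles of equal number came from 1 mouse, the SE and p-values of the averages may be too small. Those of the comparisons between muscles and of the difference of the knockout effects may then be too large. In soleus 1 of the 8, Aldh18a1, separated with KO higher, as did 5.48% of all probe sets, and 0 of the 8 passed (limma, 2 of 8 at an unadjusted p under 0.05), where 0.0109% of all probe sets passed and 7.46% were under that unadjusted p. The median log2 difference of the 8 genes was 1.25 in TA and 0.39 in soleus, against -0.01 and 0.00 over all tested probe sets.

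**Figure D1:**
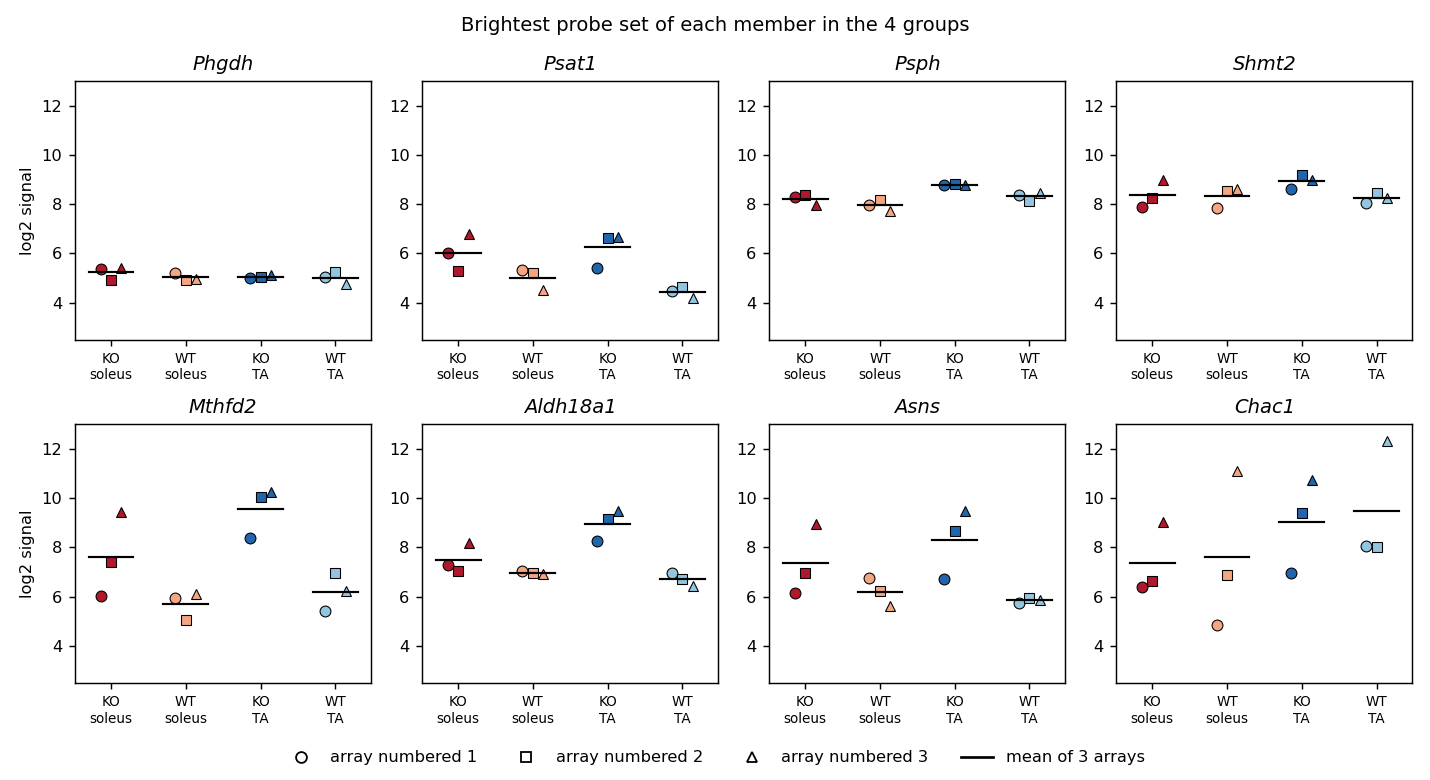
Log2 signal (y axis) of the brightest probe set of each of the 8 measured genes on the 12 arrays, by group (x axis); circles, squares and triangles are arrays numbered 1, 2 and 3, and bars are means of 3 arrays. KO TA lies above WT TA without overlap in Psat1, Psph, Shmt2, Mthfd2, Aldh18a1 and Asns, and the triangles are the highest points of every group in Chac1.

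Of the enzymes of proline synthesis, Aldh18a1 rose in KO TA. It encodes the mitochondrial enzyme that turns glutamate into the precursor of proline and ornithine. Its brightest probe set read log2 8.24, 9.16 and 9.46 in KO TA, against 6.94, 6.71 and 6.44 in WT TA. Every KO TA array exceeded every WT TA array by more than the range within either group. The difference was 2.26 (SE 0.34, 4.79-fold, adjusted p = 0.0168, limma). This call was lost without KO TA array 2 (adjusted p = 0.072), KO TA array 3 (0.0553) or WT TA array 2 (0.0503), without the 4 arrays numbered 3 (difference 1.86, 0.0936), and in a fit of the TA arrays alone (0.114).

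In soleus the same probe set read 7.27, 7.04 and 8.16 in KO, against 7.02, 6.97 and 6.93 in WT. The groups did not overlap, although KO arrays 1 and 2 lay close to WT, and the difference of 0.52 (SE 0.34) did not pass (adjusted p = 0.887, limma). Averaged over the muscles Aldh18a1 rose by 1.39 (SE 0.24, adjusted p = 0.0211). That call was lost without WT soleus array 2 (0.0554), WT soleus array 3 (0.0552), KO TA array 2 (0.0615) or the 4 arrays numbered 3 (1.01, adjusted p = 0.123). The difference between the effects, TA minus soleus, was 1.74 (SE 0.49) and did not pass (adjusted p = 0.702), so the effect was not shown to differ between the muscles.

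The other 4 probe sets of Aldh18a1 were dimmer, and none passed in TA. They differed by 0.95, 1.11, 1.06 and 0.07 in TA (adjusted p = 0.134 to 0.866) and by 0.04 to 0.25 in soleus. The probe sets of this gene other than the dimmest therefore shared a direction in TA but not a size. The dimmest, between log2 3.65 and 4.27, sat near the floor of the table, and its KO and WT TA arrays were mixed. All but the one at 1.11, the brightest included, bear the maker's mark x_at for probes that can match other transcripts. The one at 1.11 did not pass with the replicate number as a block either (adjusted p = 0.0775, limma).

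**Figure D2:**
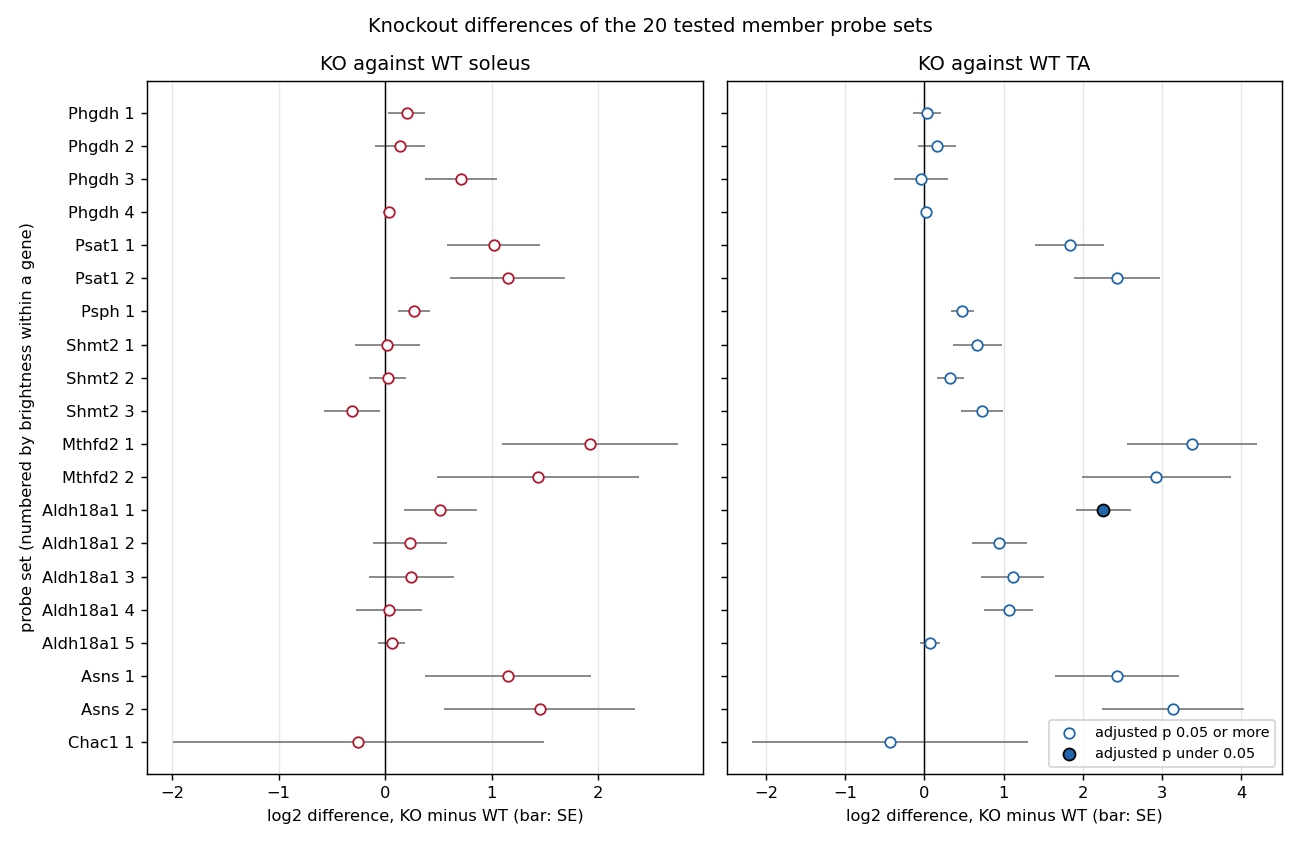
Log2 difference, KO minus WT (x axis), of the 20 tested probe sets in soleus and TA, numbered by brightness within a gene (y axis); bars are the model's standard errors and a filled point passed the adjusted test. The filled point is the brightest Aldh18a1 probe set in TA, and both probe sets of Psat1, Mthfd2 and Asns lie to its side of 0 with wider bars.

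Of the mitochondrial folate cycle, Mthfd2 had the largest log2 difference of the brightest probe sets in TA. It encodes the mitochondrial dehydrogenase and cyclohydrolase that carries carbon from serine towards formate. Its brighter probe set read log2 8.38, 10.06 and 10.25 in KO TA, against 5.42, 6.94 and 6.21 in WT TA. KO and WT did not overlap, and KO array 1 was the lowest of its group. The difference was 3.38 (SE 0.82, 10.4-fold, adjusted p = 0.079, limma) and did not pass. With the replicate number as a block it passed (adjusted p = 0.0338).

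In soleus Mthfd2 read 6.02, 7.40 and 9.44 in KO, against 5.95, 5.05 and 6.09 in WT. The groups overlapped at KO array 1, and KO array 3 was 10.7-fold above it. The difference of 1.92 (SE 0.82) did not pass (adjusted p = 0.637, limma). Averaged over the muscles Mthfd2 rose by 2.65 (SE 0.58, 6.28-fold, adjusted p = 0.0434), a call that remained in 2 of the 12 fits that left out 1 array, those without KO soleus array 1 or KO TA array 1, and was lost in the others (adjusted p = 0.0555 to 0.112) and without the 4 arrays numbered 3 (2.11, adjusted p = 0.183). It was also lost with no filter on low signal (adjusted p = 0.0802).

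The dimmer probe set of Mthfd2 read 5.22, 6.79 and 8.13 in KO TA, against 3.67, 3.66 and 4.02 in WT TA, a difference of 2.93 (SE 0.95, adjusted p = 0.173, limma). In soleus only KO array 3, at 7.41, stood above the rest, which lay between 3.39 and 3.97. Its WT signals were close to the floor, so its differences may be too small.

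Shmt2, the mitochondrial hydroxymethyltransferase that splits serine into glycine and a folate-bound carbon, differed less. Its brightest probe set read 8.60, 9.19 and 8.99 in KO TA, against 8.06, 8.46 and 8.24 in WT TA. The groups did not overlap, but the difference of 0.67 (SE 0.30) did not pass (adjusted p = 0.347, limma). Its dimmer probe sets differed by 0.33 and 0.72 in TA (adjusted p = 0.429 and 0.231, limma), and the second passed with the replicate number as a block (adjusted p = 0.0415). In soleus the 3 tested probe sets differed by 0.02, 0.02 and -0.31, with KO and WT mixed throughout.

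Of the enzymes of serine synthesis, Psat1, the transaminase of the middle step, rose in the average over both muscles. Its brightest probe set read log2 5.42, 6.64 and 6.68 in KO TA, against 4.45, 4.62 and 4.17 in WT TA. In soleus it read 6.02, 5.28 and 6.80 in KO, against 5.34, 5.19 and 4.50 in WT. The groups separated in TA and overlapped in soleus at KO array 2. The differences were 1.83 in TA (SE 0.44, adjusted p = 0.0744, limma) and 1.02 in soleus (SE 0.44, adjusted p = 0.639), neither past the test, and the average was 1.43 (SE 0.31, 2.69-fold, adjusted p = 0.0414).

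The dimmer Psat1 probe set read 5.31, 6.14 and 6.197 in KO TA, against 3.76, 3.65 and 2.95 in WT TA. In soleus it read 5.83, 5.33 and 5.91 in KO, against 5.21, 5.29 and 3.11 in WT. KO lay above WT without overlap in both muscles, in soleus by a margin of less than 0.05, and the arrays numbered 3 of both WT groups were near the floor. The average rose by 1.79 (SE 0.38, adjusted p = 0.0387, limma), or 1.17 (adjusted p = 0.106) without the 4 arrays numbered 3, whereas the TA difference of 2.43 (SE 0.54) did not pass (adjusted p = 0.0596). The average of the brighter probe set stayed past the test in 2 of the 12 fits that left out 1 array, those without KO soleus array 2 or KO TA array 1, and otherwise ranged from 0.0543 to 0.109, with 0.263 without the 4 arrays numbered 3. It was also lost with no filter on low signal (0.0726) and with a pseudocount of 32, where the average was 0.83 (adjusted p = 0.0601).

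Phgdh, which starts the pathway from a glycolytic intermediate, showed no such separation. Its brightest probe set read 4.98, 5.03 and 5.14 in KO TA, against 5.06, 5.25 and 4.75 in WT TA, and 5.35, 4.92 and 5.40 in KO soleus, against 5.199, 4.93 and 4.95 in WT soleus. The groups overlapped in both muscles, and the differences were 0.03 (SE 0.17) in TA and 0.20 (SE 0.17) in soleus. The other 3 probe sets, with means between 3.75 and 4.88, differed by -0.04 to 0.16 in TA and by 0.04 to 0.71 in soleus, none past the test. All 4 have names ending in x_at, the maker's mark for probes that can match other transcripts, and predicted genes are named beside Phgdh on the pair left out, so its signal is uncertain. The brightest probe sets of Shmt2, Aldh18a1 and Asns bear the same mark.

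Psph, the phosphatase of the last step, varied little within groups. It read 8.77, 8.83 and 8.79 in KO TA, against 8.39, 8.13 and 8.44 in WT TA. All KO arrays were above all WT arrays, by 0.48 (SE 0.15, 1.39-fold, adjusted p = 0.15, limma). In soleus it read 8.28, 8.38 and 7.98 in KO, against 7.96, 8.15 and 7.73 in WT, which overlapped, a difference of 0.27 (SE 0.15). The average of 0.37 (SE 0.10) did not pass (adjusted p = 0.0959).

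Asns encodes the synthetase that makes asparagine from aspartate and glutamine. Its brightest probe set read log2 6.73, 8.65 and 9.47 in KO TA, against 5.74, 5.93 and 5.87 in WT TA. In soleus it read 6.13, 6.97 and 8.97 in KO, against 6.75, 6.24 and 5.62 in WT. The TA groups did not overlap, the soleus groups did, and array 1 was the lowest and array 3 the highest of both KO groups. The spread within KO TA was 6.68-fold, against 1.14-fold within WT TA, and the TA difference of 2.44 (SE 0.78, 5.42-fold) did not pass (adjusted p = 0.172, limma).

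The dimmer Asns probe set read 5.68, 7.59 and 9.12 in KO TA, against 4.39, 4.48 and 4.12 in WT TA, a difference of 3.13 (SE 0.90, adjusted p = 0.126, limma). In soleus it read 4.60, 6.10 and 7.90 in KO, against 5.002, 4.796 and 4.45 in WT. The order of the KO arrays was the one of the brighter probe set. Averaged over both muscles the Asns probe sets differed by 1.80 (SE 0.55) and 2.29 (SE 0.63), neither past the test (adjusted p = 0.133 and 0.095).

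Chac1 encodes a gamma-glutamyl cyclotransferase that degrades glutathione, and its highest arrays were those numbered 3, in KO and WT alike. It read log2 6.95, 9.38 and 10.75 in KO TA, against 8.04, 8.02 and 12.32 in WT TA, and 6.40, 6.62 and 9.04 in KO soleus, against 4.86, 6.87 and 11.10 in WT soleus. The array numbered 3 was the highest of all 4 groups, 75.6-fold above the lowest in WT soleus and 19.7-fold in WT TA. The differences were -0.43 in TA and -0.25 in soleus (SE 1.74 each), far inside this spread. Without the 4 arrays numbered 3 they were 0.14 and 0.64, with the opposite sign and not past the test.

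**Figure D3:**
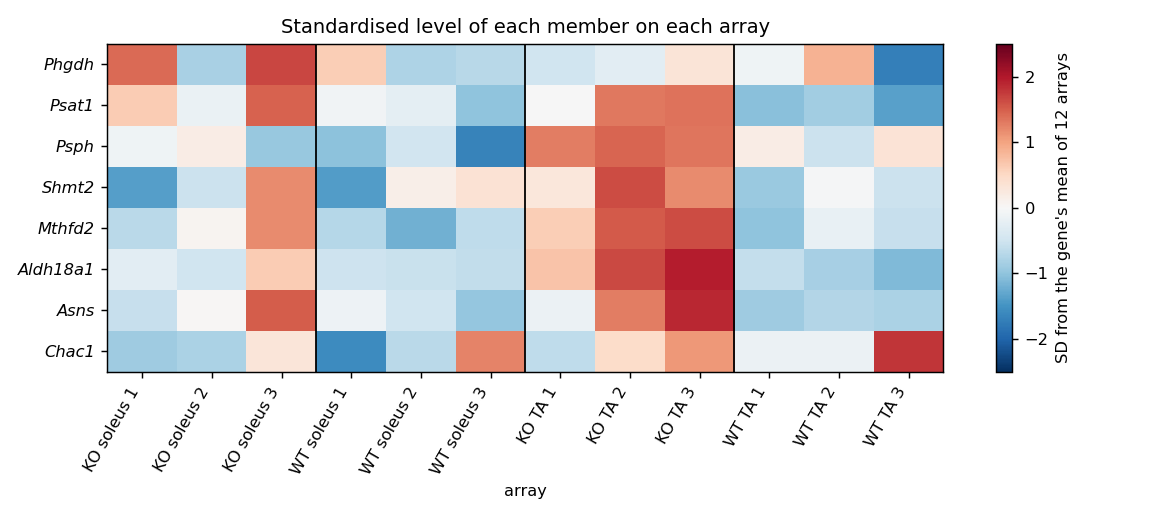
Level of each measured gene (rows, brightest probe set) on each array (columns), as SD from the gene's mean over the 12 arrays; red is above and blue below that mean. KO TA arrays 2 and 3 and KO soleus array 3 are red in most rows, and the row of Chac1 is reddest on WT TA array 3.

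Most members followed a similar profile along the arrays. Averaged over the 8 standardised genes, KO TA arrays 1, 2 and 3 stood 0.20, 1.13 and 1.34 SD above the gene means, and KO soleus arrays at -0.23, -0.31 and 0.88. All 6 WT arrays lay between -0.60 and -0.31. KO arrays thus covered a wide range that began near WT in soleus arrays 1 and 2, whereas WT arrays of both muscles lay close together. As a description over the 12 arrays, the Euclidean distance of a gene's standardised profile from this mean profile was smallest for Mthfd2 (0.95), Aldh18a1 (1.04), Asns (1.19), Psat1 (1.77) and Shmt2 (2.02), and largest for Psph (3.09), Chac1 (3.87) and Phgdh (3.89), against a median of 4.57 over 13001 other genes. The members enter their own mean, so their distances are shortened by that.

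The genes outside the members nearest to that mean profile were Cyb5r1 (distance 0.84), Cdk5rap3 (0.87), Elp6 (0.90), Akr1a1 (0.99) and Fuca2 (0.99). Cyb5r1 encodes a cytochrome b5 reductase, Akr1a1 an aldehyde reductase that uses NADPH, and Fuca2 a fucosidase. Cdk5rap3 averaged log2 9.54 in KO TA, against 8.17 in WT TA, and 8.72 in KO soleus, against 8.35 in WT soleus. Elp6 averaged 5.54 in KO TA, against 3.91 in WT TA, and 4.31 in KO soleus, against 3.78 in WT soleus. These profiles share the 12 arrays, with the offset of those numbered 3.

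Between the muscles, 1 member differed in KO and 0 in WT, while the test of the difference of the knockout effects itself passed for 0 of 8 (limma; 1 of 8 at an unadjusted p under 0.05, where 0.0145% of all probe sets passed and 5.21% were under that p). In WT, 0 of the 8 genes passed between soleus and TA (1 of 8 at an unadjusted p under 0.05, Psph), where 6.91% of all probe sets passed and 24.2% were under that p. In KO, Aldh18a1 was 2.76-fold lower in soleus than in TA (log2 difference -1.46, SE 0.34, adjusted p = 0.0395), where 5.33% of all probe sets passed and 2.79% passed as lower in soleus. That call was lost in 13 of 24 alternatives, 9 of them fits that left out 1 array (adjusted p = 0.0539 to 0.139). By the brightest probe sets, KO soleus and KO TA did not overlap in Aldh18a1 and Psph, with soleus lower in both, and 16.1% of all probe sets separated in that direction. Over the 20 member probe sets, 5 separated with soleus lower and 1, a dimmer one of Phgdh, with soleus higher (log2 difference 0.97). Psph differed by -0.58 (SE 0.15, adjusted p = 0.0519, limma), and passed with the replicate number as a block (adjusted p = 0.0398). The 4 dimmer probe sets of Aldh18a1 differed by -0.73, -1.02, -1.20 and -0.20 in this comparison, and the one at -1.20 passed with that block (adjusted p = 0.0337). So did the dimmer probe sets of Shmt2, at -0.51 (adjusted p = 0.0224, against 0.133 without the block) and -0.84 (0.0132, against 0.109). With that block 3033 of all 27497 probe sets passed between the KO muscles, in either direction.

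Among the other enzymes and carriers of serine, glycine and folate metabolism, 17 of the 24 genes listed were tested, and 1 rose in KO TA (median log2 difference 0.11). For this and the following lists, 1.68% of all probe sets passed in TA in either direction and 0.796% as higher. Aldh1l2, the mitochondrial formyl-folate dehydrogenase that releases carbon dioxide and makes NADPH, read log2 5.003, 5.48 and 6.12 in KO TA, against 3.74, 4.54 and 3.85 in WT TA. The groups did not overlap, and the difference was 1.49 (SE 0.29, 2.81-fold, adjusted p = 0.0396, limma). Its WT TA signals, like its soleus signals below, lay near the floor of the table, and with a pseudocount of 32 the TA difference was 0.70. The call was lost in 9 of the 12 fits that left out 1 array (adjusted p = 0.0559 to 0.124) and without the 4 arrays numbered 3 (1.10, adjusted p = 0.215). With the replicate block Mtrr, methionine synthase reductase, passed as well (0.85, adjusted p = 0.0426; 0.113 without it).

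In soleus 0 of these 17 passed (limma, 0 also at an unadjusted p under 0.05). Aldh1l2 read 3.73, 3.34 and 3.77 in KO soleus, against 4.03, 4.29 and 3.90 in WT soleus. There every KO array lay below every WT array, the reverse of TA, by a difference of -0.46 (SE 0.29, adjusted p = 0.871). The genes of largest difference above a mean of log2 5 were Mtfmt, the mitochondrial methionyl-tRNA formyltransferase (0.46, SE 0.34), and Mthfd2l, the isozyme of Mthfd2 (0.40, SE 0.37). Aldh1l2 was lower in KO soleus than in KO TA, with a log2 difference of -1.92 (SE 0.29, adjusted p = 0.0054).

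Among the other enzymes that make or use proline, ornithine and glutamate, 12 of the 16 genes listed were tested, and 0 passed in TA, in soleus or in their average (limma; 4, 4 and 3 at an unadjusted p under 0.05, where 14.8%, 7.46% and 15% of all probe sets were). Medians were -0.04 in TA and -0.20 in soleus. Pycr3, the cytosolic reductase that completes proline synthesis, differed by 0.29 in TA (SE 0.23) and 0.10 in soleus (SE 0.23). Gpt2, the mitochondrial alanine transaminase, read 10.33, 10.05 and 10.87 in KO TA, against 11.52, 11.85 and 12.80 in WT TA. These groups did not overlap, at a difference of -1.64 (SE 0.48, adjusted p = 0.134). With the replicate block Gpt2 passed as lower (adjusted p = 0.0163), and Got1, the cytosolic aspartate transaminase (0.64, adjusted p = 0.0183), and Oat, ornithine aminotransferase (0.48, adjusted p = 0.0173), passed as higher.

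Got1 read 13.22, 13.64 and 13.46 in KO TA, against 12.84, 12.85 and 12.71 in WT TA, and 12.55, 12.83 and 12.80 in KO soleus, against 12.96, 13.38 and 13.38 in WT soleus. KO was above WT in TA and below it in soleus, without overlap in either. The differences were 0.64 in TA (SE 0.14, adjusted p = 0.0596, limma) and -0.51 in soleus (SE 0.14, adjusted p = 0.34). Aldh4a1, which oxidises the proline breakdown product to glutamate, had the largest difference of the list in soleus (-0.99, SE 0.28, adjusted p = 0.354).

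Around methionine, cysteine and glutathione, 18 of 20 genes were tested and 1 fell in KO TA. Ahcyl2, a homologue of adenosylhomocysteinase, read 7.35, 7.19 and 7.08 in KO TA, against 7.78, 7.78 and 7.79 in WT TA. KO lay wholly below WT, with a log2 difference of -0.58 (SE 0.12, limma, adjusted p = 0.0435), and the average over muscles was -0.45 (adjusted p = 0.0248). The TA call was lost in 11 of the 12 fits that left out 1 array (adjusted p = 0.0531 to 0.154), with the table as deposited (0.0996) and with median centring (0.141), and the TA difference without the 4 arrays numbered 3 was -0.50 (adjusted p = 0.225). The call of the average stood in 4 of those 12 fits and was lost with the table as deposited (0.0592), with median centring (0.0784) and without the 4 arrays numbered 3 (-0.37, adjusted p = 0.197). In soleus 0 of 18 passed (1 at an unadjusted p under 0.05). With the replicate block Sqor, the mitochondrial sulfide oxidising enzyme, passed as lower in KO TA (-0.997, adjusted p = 0.0324; 0.0868 without it). Chac2, the relative of Chac1, differed by -0.74 in TA and by -0.42 in soleus.

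Among the genes of the eIF2alpha, ATF4 and ER stress pathways, 18 of the 19 listed were tested, and 16 were higher in KO TA (median 0.36), where 48% of all probe sets were. Only Ddit3, which encodes the stress factor CHOP, passed without a block. It read log2 9.50, 10.73 and 11.05 in KO TA, against 8.32, 8.18 and 7.98 in WT TA. KO and WT were apart on all arrays, at a difference of 2.27 (SE 0.43, adjusted p = 0.0349, limma). The average over muscles was 1.61 (SE 0.30, adjusted p = 0.0262), a call that stood in 5 of the 12 fits that left out 1 array and was lost without the 4 arrays numbered 3 (1.22, adjusted p = 0.134). The TA call was lost in 9 of the 12 fits that left out 1 array (adjusted p = 0.0529 to 0.125) and without the 4 arrays numbered 3 (1.87, adjusted p = 0.126).

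Atf4 mRNA itself read 10.91, 11.49 and 11.31 in KO TA, against 10.45, 10.56 and 10.49 in WT TA. KO lay wholly above WT, and the difference of 0.74 (SE 0.18) did not pass (adjusted p = 0.0787, limma). With the replicate block 4 genes of this list passed as higher in KO TA: Ddit3 (adjusted p = 0.0223), Atf4 (0.0232), Atf5, a relative of ATF4 (1.02, 0.043), and Xbp1, the transcription factor of another branch of the ER stress response (0.95, 0.047). With that block 1196 of all 27497 probe sets passed in TA, in either direction. In soleus 14 of 18 were higher in KO, where 51.4% of all probe sets were, and 0 passed (limma, 0 also at an unadjusted p under 0.05). There Ddit3 read 9.23, 9.65 and 10.75 in KO, against 8.94, 8.82 and 8.99 in WT, which did not overlap, at a difference of 0.96 (SE 0.43, adjusted p = 0.67).

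Other known targets of ATF4, mostly amino acid transporters, showed no common direction. Of 17 listed 13 were tested, 7 were higher and 6 lower in KO TA (median 0.06), and 0 passed in TA, soleus or their average (limma; 1, 0 and 2 at an unadjusted p under 0.05). Slc7a1, a carrier of cationic amino acids, read 5.86, 5.96 and 5.88 in KO TA, against 4.58, 5.30 and 4.08 in WT TA. KO was higher without overlap, by 1.25 (SE 0.39, adjusted p = 0.159). Ddit4, an inhibitor of the growth kinase mTORC1, differed by -1.29 (SE 0.64, adjusted p = 0.394) and passed as lower with the replicate block (adjusted p = 0.0158). Fgf21, a hormone that muscle releases under such stress, did not pass the filter on low signal.

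**Figure D4:**
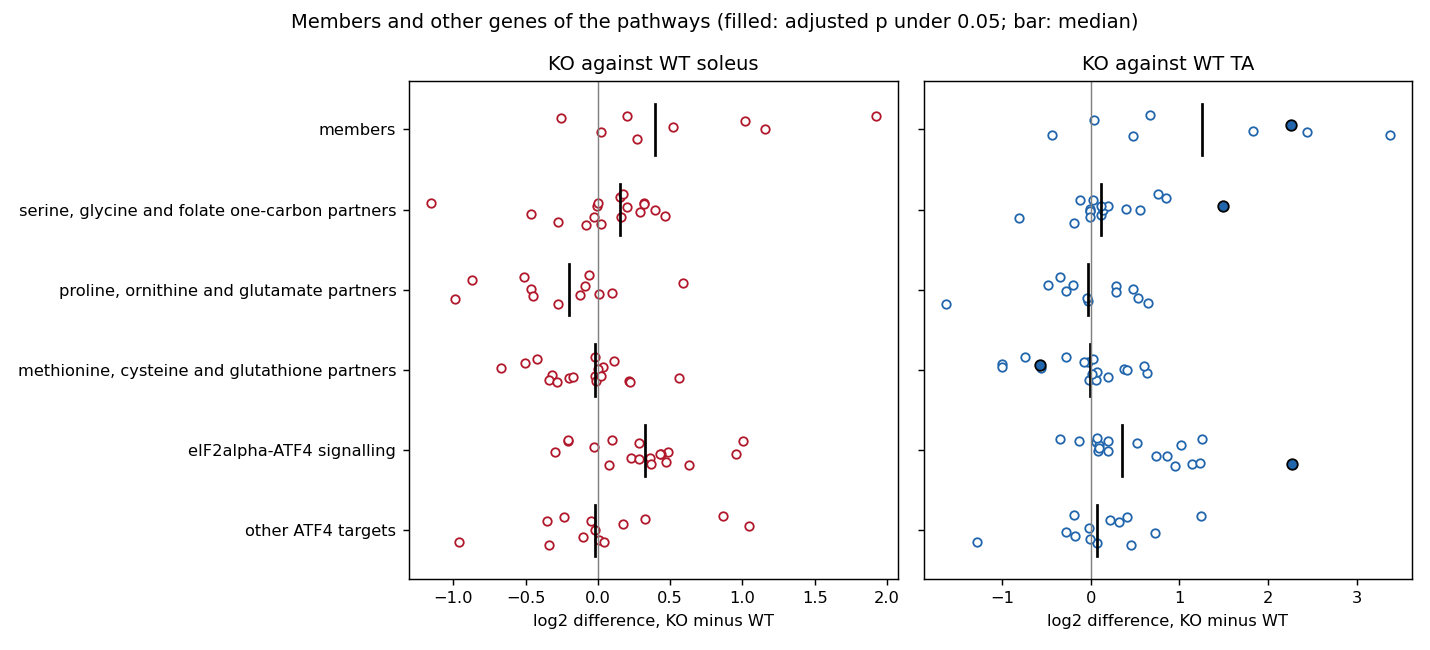
Log2 difference, KO minus WT (x axis), of the 8 measured members and the tested genes of 5 pathway lists (y axis) in soleus and TA; bars are list medians and filled points passed the adjusted test. The filled points are Aldh18a1, Aldh1l2, Ahcyl2 and Ddit3, all in TA.

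Markers of the tissue were measured on the same arrays. Over all probe sets, 48% were higher in KO TA than in WT TA, and 14.8% were under an unadjusted p of 0.05 there (limma). In soleus 51.4% were higher in KO and 7.46% were under that p. The 10 skeletal muscle fibre markers were all tested, and their summed unlogged level was 292000 to 350000 over the 12 arrays. None passed between KO and WT in soleus or in TA (limma, 3 in each at an unadjusted p under 0.05), and 1, the oxygen carrier Mb (-0.23, adjusted p = 0.04; 0.223 without the 4 arrays numbered 3), was lower in KO in the average over muscles. Of the 10 fast fibre markers 0 passed in soleus or TA (2 and 0 at an unadjusted p under 0.05), and 1, the calcium pump Atp2a1 (-0.32, adjusted p = 0.0498; 0.275 without those arrays), was lower in KO in the average. All 8 slow fibre markers were higher in WT soleus than in WT TA and passed (median 7.55). The same 8 were higher in KO TA than in WT TA, 0 of them past the test (4 at an unadjusted p under 0.05; median 1.35), with summed levels of 4430 to 7030 in KO TA, against 1400 to 3870 in WT TA and 308000 to 366000 in soleus. WT TA array 3 had the lowest Myh7, at 2.67, against 7.11 and 8.25 on the other WT TA arrays, and the median was 0.61 without the 4 arrays numbered 3. The part of slow fibre transcripts in the TA results was not tested.

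The 8 fibroblast markers were also all higher in KO TA, 0 past the test (0 at an unadjusted p under 0.05; median 0.24), with summed levels of 58300 to 89200 in KO TA, against 58200 to 72000 in WT TA. All 8 endothelial markers were lower in KO soleus, 0 past the test (1 at an unadjusted p under 0.05; median -0.30), with summed levels of 2440 to 3470, against 3140 to 3930 in WT soleus. Of the macrophage, adipocyte, Schwann cell, erythroid, smooth muscle, and dividing or satellite cell markers, 0 passed in any comparison of KO with WT (limma; of the 31 tested, 3 in TA were under an unadjusted p of 0.05). With the replicate block 1 did, the erythroid anion carrier Slc4a1, as lower in KO TA (-0.47, adjusted p = 0.0423; 0.0854 without it). Their part in the results was not tested, and in these bulk samples fewer cells of a type and less RNA per cell cannot be told apart.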

How the data were processed

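Biotin-labelled cRNA from Trizol-extracted RNA was hybridised to 1-colour Affymetrix arrays, per the labels' protocols. The deposited table holds log2 signals, 1 column per array, from 0.89 to 16.36 with 0 missing values. How probes were summarised is not stated in any source used; the submitters' processing notes name MAS5 with no version or role. Precision is limited by having 3 arrays in a group.

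Arrays were quantile normalized, since their 2% trimmed means differed by up to 1.11 times. A probe set was tested if at least 3 of its 12 values exceeded the 40th percentile of the array (log2 2.76, in the floor of the table), and 64 controls were dropped. GEO's platform annotation names 1 symbol for 34958 probe sets, more than 1 for 932 and none for 9160. limma 3.58.1 in R 4.3.3 was fitted to 4 group means over all 12 arrays with a variance trend. Tests were 2-sided, Benjamini-Hochberg adjusted over the 27497 probe sets of each comparison, with a threshold of 0.05. For 3 arrays against 3, no exact permutation test reaches below p = 0.1. The fit was tested on simulated data.

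All 10 members with every probe set, and H6pd, are named. For each pathway list the genes named are those past the test in a knockout comparison or, with none, up to 2 of largest difference above a mean of log2 5. The genes named only with the replicate block, and Atf4, Pycr3 and Fgf21, were named after their values were seen. A list gene is read by its brightest probe set, and 1 was matched by a synonym. The members and lists were chosen with earlier results of these data known.

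The labels do not say what equal replicate numbers share. As a check of pairing, each array's deviation from its group mean was correlated with that of the equal-numbered array of another group. Numbers 1, 2 and 3 gave 0.34, 0.31 and 0.63 between KO and WT TA, 0.45, 0.54 and 0.66 between the KO muscles and 0.41, 0.16 and 0.61 between the WT muscles, all above the limit of 0.1. KO and WT soleus gave 0.36, 0.07 and 0.66, where number 2 fell short. Values with the replicate block stand beside results in TA and between the KO muscles where they change a call of a member or, in TA, of a listed gene, and for averages, which include soleus, they stand with the alternatives. Unequal numbers 1 and 2 gave 0.23 and 0.3 between KO and WT TA, 0.34 and 0.44 between KO and WT soleus and 0.4 and 0.19 between the WT muscles. Between the KO muscles they gave 0.04 and 0.15. Between KO and WT TA, between KO and WT soleus and between the WT muscles, the check therefore cannot tell equal from unequal pairing of numbers 1 and 2. With number 3 apart in each group, numbers 1 and 2 deviate the other way, so their correlations tend to be positive in any pairing. Equal numbers of KO soleus and WT TA, which differ in genotype and muscle, gave 0.25, 0.4 and 0.57. The block joins KO and WT arrays of equal number, so it does not model a mouse shared by the muscles of 1 genotype. This pairing rests on the data alone, and on number 3 standing apart in each group. Alternatives were other normalizations, filters, a pseudocount of 32, other variance models, array weights, fewer arrays and the block.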

Additional observations from a re-analysis of the deposited data

Results flagged for a closer look

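Of the members and the genes of the pathway lists, 2 had knockout effects of opposite sign in the muscles, with no overlap between KO and WT arrays in either. Aldh1l2 was higher in KO TA and lower in KO soleus, and the difference of the effects, TA minus soleus, was 1.95 (SE 0.41, adjusted p = 0.441, limma). Got1 was higher in KO TA and lower in KO soleus, and the difference of the effects was 1.16 (SE 0.20, adjusted p = 0.253, limma). Neither passed after adjustment over all probe sets. In TA 9.93% of all probe sets separated with KO higher, and how many of them separated with KO lower in soleus was not counted. The count of 2 is therefore not shown to exceed that share.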

How the results depend on the processing

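The number of members called in KO against WT TA, 1, was 3 with a filter on a mean log2 above 5, 2 with the replicate block, 0 in a fit of the TA arrays alone and 0 without the 4 arrays numbered 3. Averaged over the muscles it was 3, and fell to 1 with no filter and to 0 without the arrays numbered 3. Between KO soleus and KO TA it was 1, and became 0 with the table as deposited, with median centring, with no filter and in a fit of the KO arrays alone, and 2 with the mean filter, the pseudocount, 1 probe set per gene, no variance trend, array weights or the replicate block. These counts are by the brightest probe set of each member. When 1 array at a time was left out they ranged from 0 to 2 in TA, 0 to 3 in the average and 0 to 2 between the KO muscles. They stayed at 0 in soleus, in the difference of effects and between the WT muscles in every alternative run. The dimmer Psat1 probe set passed as higher in WT soleus than in WT TA without the 4 arrays numbered 3 (1.54, adjusted p = 0.042, limma). With the block no other call of a member's brightest probe set changed. In the average over muscles 1811 of all 27497 probe sets passed with the block. Called as higher in KO were 1 of 17 serine, glycine and folate partners (0 without the block) and 5 of 18 eIF2alpha, ATF4 and ER stress genes (1). Called as lower were 2 of 12 proline, ornithine and glutamate partners (0) and 3 of 18 methionine, cysteine and glutathione partners (1). Of the other ATF4 targets 1 of 13 was called, also as lower (0). The block lost Atp2a1 (adjusted p = 0.0517) and added Ryr1 (-0.66, adjusted p = 0.0302).

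Signs turned in 38 cases, none of a called difference. Chac1 changed sign with array weights (0.19 in TA, 0.010 averaged, 0.36 in the difference of effects), with the pseudocount (0.011 in the difference of effects) and without the arrays numbered 3 (0.14 in TA, 0.64 in soleus, 0.39 averaged). Shmt2 turned with array weights (-0.25 in soleus) and without the arrays numbered 3 (-0.14 in soleus, -0.065 between WT muscles). Phgdh turned with array weights (-0.084 between WT muscles) and without the arrays numbered 3 (-0.14 in TA, -0.036 averaged, -0.086 between WT muscles). Leaving out 1 array at a time gave Chac1 -1.63 to 1.49 in soleus, -1.30 to 0.995 in TA, -1.03 to 0.53 averaged and -1.92 to 1.25 in the difference of effects, Shmt2 -0.29 to 0.27 in soleus and -0.057 to 0.33 between WT muscles, Phgdh -0.10 to 0.15 in TA and -0.13 to 0.12 between WT muscles, and Psat1 -0.63 to 0.16 between KO muscles. The cause was not tested.

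The number of probe sets called in all was 462 in TA and 793 averaged; it was 287 and 474 with no filter, 1196 and 1811 with the block, 35 and 39 without the arrays numbered 3, and 4 in the TA arrays alone. Array weights gave 194 in soleus, against 3, and 1498 averaged. Low signal limits Cth, the dimmer probe sets and Phgdh.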
